A study of Mus musculus with 2 samples.

Results

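Cxcr6-positive T cells are the liver T lymphocytes described here. CXCR6 is a chemokine receptor whose ligand, CXCL16, is displayed by the endothelium of the liver sinusoids. T cells and natural killer T (NKT) cells that patrol or reside in the liver are known for carrying it. CXCR3, a second receptor on such cells, binds the interferon-induced chemokines CXCL9 and CXCL10. T cells that recirculate through blood and lymph nodes are known instead for Ccr7 and the sphingosine phosphate receptor S1pr1.

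The cells came from droplet single-cell RNA sequencing of mixed liver cell suspensions from C57BL/6 mice, with 1 library per group. The pIVCL library is labelled as partial ligation of the inferior vena cava, which congests the liver and raises portal pressure, held for 6 weeks from a starting age of 8 to 10 weeks. The Control library is titled healthy. Its protocol text also describes the ligation, so the assignment to groups follows the genotype and title labels. The sources used here do not say whether Control mice had a sham operation or how many mice made each library.

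A barcode counted as a Cxcr6-positive T cell when it held at least 200 genes, at most 25% mitochondrial UMIs, at least 2 UMIs over the 5 genes Cd3d, Cd3e, Cd3g, Trac and Trbc2, no UMI of Cd79a (B cells) or Clec4f (Kupffer cells), and at least 1 Cxcr6 UMI. A UMI is 1 counted RNA molecule. The rule took 351 of the 10616 barcodes, 169 in pIVCL and 182 in Control. They were 169 of 5446 barcodes that passed the gene and mitochondrial filters in pIVCL, and 182 of 2726 in Control. The cells were chosen by their measured UMIs of Cxcr6 and the T cell genes, so the levels of those genes are given only as a description. Each group is a single library, so no test was possible. All intervals are exact 95% intervals that cover counting error only, and every difference sets one library beside the other without a replicate check.

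The pIVCL library held 38154000 UMIs in 7042 barcodes and the Control library 24637681 UMIs in 3574 barcodes. Cxcr6-positive T cells had a median of 2901 UMIs in pIVCL and 5347 UMIs in Control, so levels are given as CPM, the gene's UMIs per 1000000 summed UMIs of the class. The libraries shared 13 barcodes, of which 0 pIVCL members and 1 Control member carried one. Some members also held RNA of other liver cells. At least 2 UMIs summed over lists of sinusoidal endothelial, macrophage (without Lyz2), B cell (without Igkc, Ighm and Jchain) and stellate cell markers stood in 52 of 169 pIVCL members (30.8%) and 42 of 182 Control members (23.1%). Such barcodes were deeper, with medians of 5792 UMIs in pIVCL and 6031 UMIs in Control. The members without them, 117 in pIVCL and 140 in Control, had medians of 2578 and 5222 UMIs. They are called marker-free members below, although hepatocyte and immunoglobulin RNA was not part of the filter and remained in them. Markers of natural killer (NK) and type 1 innate lymphocytes, of neutrophils and monocytes, and of dendritic cells were not filtered either. At least 2 UMIs of the NK and type 1 innate lymphocyte list stood in 30.8% of all pIVCL members and 58.2% of all Control members. Whether some members were innate lymphocytes was not tested.

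The promoters of the 2 receptor genes are shown because Cxcr6 defines the cells and Cxcr3 is their receptor for the chemokine in the study's title. Capitals mark the letters ACCACA, the other strand of TGTGGT, the core motif of RUNX factors, which are regulators of T cell genes. The sequences are RefSeq promoters of build GRCm38.p6, 250 bases before to 50 bases after the annotated start, written 5′ to 3′ along the gene. Cxcr6 lies at chr9:123806227-123806526 on the plus strand and Cxcr3 at chrX:101734098-101734397 on the minus strand.
Cxcr6: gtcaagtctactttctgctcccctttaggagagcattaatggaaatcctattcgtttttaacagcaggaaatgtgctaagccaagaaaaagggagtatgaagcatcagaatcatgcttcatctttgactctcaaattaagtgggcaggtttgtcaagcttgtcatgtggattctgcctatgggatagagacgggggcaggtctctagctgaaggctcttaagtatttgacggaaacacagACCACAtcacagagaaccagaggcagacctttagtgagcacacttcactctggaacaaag
Cxcr3: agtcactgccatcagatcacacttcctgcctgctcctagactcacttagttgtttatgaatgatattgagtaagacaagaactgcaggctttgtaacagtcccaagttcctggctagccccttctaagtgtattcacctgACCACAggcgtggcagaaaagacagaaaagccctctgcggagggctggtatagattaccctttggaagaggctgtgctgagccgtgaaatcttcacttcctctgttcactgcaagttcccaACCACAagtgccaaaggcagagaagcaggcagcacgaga
The motif, searched on both strands, occurred 1 time in the Cxcr6 promoter, 10 bases before the start, and 2 times in the Cxcr3 promoter. It was present in 5505 of 32841 promoters of 300 bases (16.8%). The T-box core AGGTGT, searched the same way and present in 13.7% of promoters, occurred 0 times in both. A match describes letters only.

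Cxcr6-positive cells were a smaller part of the T cells in pIVCL. They made up 44.4% of barcodes that met the T cell rule in pIVCL (169 of 381, 39.3% to 49.5%), against 81.6% in Control (182 of 223, 75.9% to 86.5%). The intervals did not overlap. The T cells themselves were 7.0% of filtered barcodes in pIVCL (6.33% to 7.71%) and 8.18% in Control (7.18% to 9.27%). As a share of all filtered barcodes, Cxcr6-positive T cells were 3.10% in pIVCL (2.66% to 3.60%) and 6.68% in Control (5.77% to 7.68%), a share that also depends on how the suspensions were mixed.

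The shallower pIVCL library gives each cell fewer chances to show a Cxcr6 UMI. Among T cells of 2000 to 6000 UMIs the shares were 46.6% in pIVCL (118 of 253) and 82.5% in Control (118 of 143). After every barcode was thinned to 1000 UMIs before the rule, they were 21.6% in pIVCL (61 of 283, 16.9% to 26.8%) and 50.3% in Control (97 of 193, 43.0% to 57.5%). The direction held both ways, and only the thinned shares were at lower levels. Control T cells were still deeper within the 2000 to 6000 UMI window, so only thinning set an equal depth. Summed over all T cells, the Cxcr6 level was 306 CPM in pIVCL and 719.9 CPM in Control, a ratio of 0.425 (0.376 to 0.479). Among cells that should lack the receptor, 0 of 1035 B cell barcodes in pIVCL and 0 of 151 in Control held a Cxcr6 UMI, at medians of 1871 and 3395 UMIs. The exact upper bounds on these shares are 0.356% in pIVCL and 2.41% in Control.

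**Figure D1:**
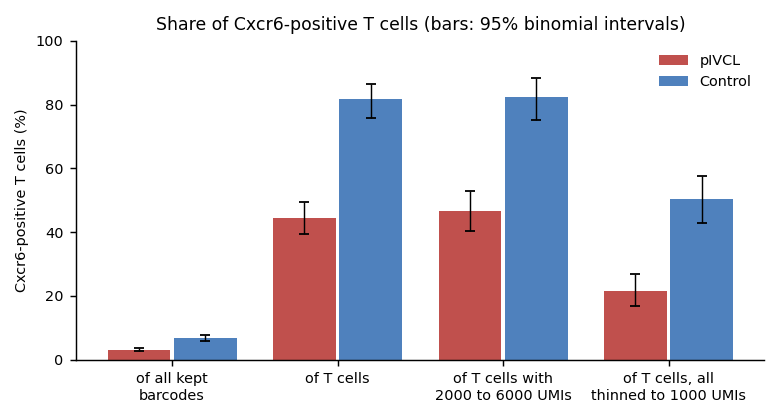
Share of Cxcr6-positive T cells (y axis, percent) in the pIVCL and Control libraries over 4 denominators (x axis), with exact 95% binomial intervals for counting error. Each pIVCL bar lies below its Control bar, with 44.4% against 81.6% of T cells and 21.6% against 50.3% after thinning.

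Near the edge of the rule the libraries differed. A single Cxcr6 UMI carried 65 of 169 members in pIVCL and 19 of 182 in Control, and 5 or more UMIs stood in 12 pIVCL and 97 Control members. The median member held 2 Cxcr6 UMIs in pIVCL and 5 in Control. It held 9 UMIs of the 5 T cell genes in pIVCL and 26 in Control. Just outside, 5 pIVCL and 0 Control barcodes had Cxcr6 with 1 T cell gene UMI, and 8 pIVCL and 2 Control barcodes were left out for a Cd79a or Clec4f UMI. Cd3e, the invariant T cell receptor chain that marks the lineage, was found in 54.4% of members in pIVCL (92 of 169) and 89.6% in Control (163 of 182).

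Set against T cells with 0 Cxcr6 UMIs, Cxcr6-positive T cells held little RNA for lymph node homing and more for several genes of tissue T cells. This contrast uses the Cxcr6 split of the rule, so its values are descriptions. The Cxcr6-negative T cells numbered 212 in pIVCL and 41 in Control, at medians of 2457.5 and 4172 UMIs, so the Control values rest on few cells. Cells whose Cxcr6 RNA was not counted can fall among them, more readily in the shallower pIVCL library. A gene counted as past 2-fold when its log2 ratio, computed with 20 CPM added to both sides, reached 1 or -1 with at least 20 summed UMIs. The added CPM understates ratios of low genes. Past 2-fold in both libraries stood 37 of 6579 genes on the higher side (0.562%) and 22 on the lower side (0.334%).

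The lower side was led by naive and recirculation genes. Ccr7, the receptor for lymph node chemokines, was at 10.4 CPM in Cxcr6-positive and 115 CPM in Cxcr6-negative T cells of pIVCL. In Control it was at 13.1 and 305 CPM. Ccr7 was thus low in Cxcr6-positive cells of both libraries. Tcf7 and Lef1, transcription factors of naive and memory T cells, had log2 ratios of -1.45 and -1.35 in pIVCL and of -2.26 and -1.83 in Control. Dapl1, a further gene of naive T cells, had -1.47 in pIVCL and -2.09 in Control. Of the 18 listed recirculation and naive genes, 14 were measured in pIVCL and 13 were lower, with a median log2 ratio of -0.64, where 61.2% of all measured genes were higher. In Control 15 of 15 were lower, with a median of -1.83, where 58.0% of all genes were higher. S1pr1, needed for T cells to leave tissue, was at 114 CPM in Cxcr6-positive and 200.2 CPM in Cxcr6-negative T cells of pIVCL, and at 33.3 and 219 CPM in Control. Among marker-free cells S1pr1 was at 65.4 and 209.9 CPM in pIVCL and at 29.7 and 183 CPM in Control.

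The tissue residency list, without Cxcr6, held 12 of 16 measured genes higher in pIVCL (median log2 ratio 0.38, against 0.10 over all genes) and 13 of 17 in Control (0.42, against 0.09). Icos, a costimulatory receptor, was at 167 CPM in Cxcr6-positive and 69.6 CPM in Cxcr6-negative T cells of pIVCL and at 133 and 58.8 CPM in Control. P2rx7, an ATP receptor of resident T cells, had log2 ratios of 1.03 in pIVCL and 1.79 in Control. Cd69, an activation and retention receptor, was not higher on this scale in pIVCL, at -0.70, and stood at 0.04 in Control. Itgae, the CD103 chain of epithelial resident T cells, was found in 3 of 169 pIVCL and 3 of 182 Control members. Cxcr6 itself was set by the rule and adds no support. The description as liver-resident therefore rests on low Ccr7 and part of the residency list, and the cells are called by their receptor here.

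Other genes on the higher side in both libraries were Rcbtb2 (log2 ratio 1.21 in pIVCL, 2.57 in Control), Tmem64 (1.22 and 1.60), Socs2, a feedback inhibitor of cytokine signalling (1.13 and 1.93), Cd38, an NAD-consuming surface enzyme (1.04 and 1.45), and Rora, a nuclear receptor (0.89 and 1.69). Fasl, the death ligand of cytotoxic lymphocytes, had 0.92 in pIVCL and 1.01 in Control (1.55 and 0.71 in marker-free cells), and Lyst, a lysosome trafficking gene, 0.89 and 1.58. Maf, a transcription factor of T cells that endothelium also expresses, had 1.18 in pIVCL and 2.54 in Control. In marker-free members Maf stood at -0.03 in pIVCL and 2.14 in Control. Ptprb, an endothelial phosphatase and one of the endothelial markers used to set marker-free members apart, headed the ranking at 2.01 in pIVCL and 1.56 in Control. At least 2 endothelial UMIs were found in 23.7% of Cxcr6-positive and 5.19% of Cxcr6-negative T cells of pIVCL, and in 14.8% and 7.32% in Control.

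**Figure D2:**
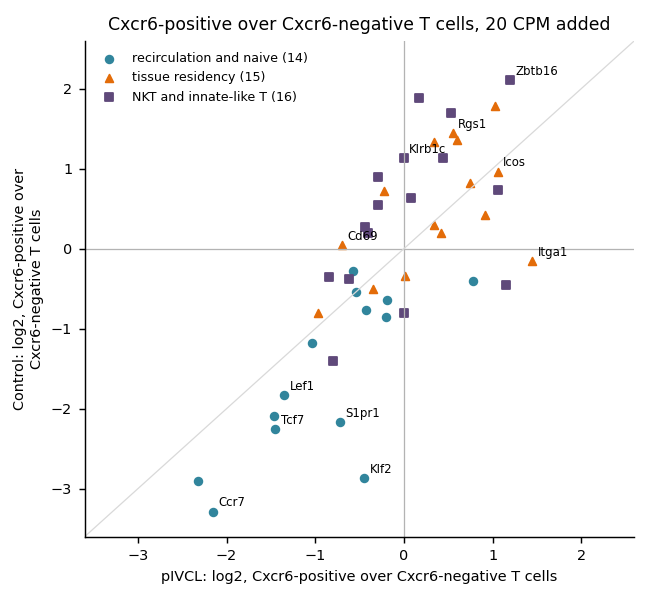
Log2 ratios of Cxcr6-positive over Cxcr6-negative T cells (20 CPM added) in pIVCL (x axis) and Control (y axis) for measured genes of 3 lists; each point is 1 gene and the diagonal marks equal values. Ccr7, Tcf7 and Lef1 lie at the lower left, below -1 in both libraries, and Zbtb16 at the upper right, at 1.20 in pIVCL and 2.11 in Control.

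Cxcr3 was lower in pIVCL members. Its level was 157 CPM in pIVCL (106 UMIs, 129 to 189.8) and 322 CPM in Control (368 UMIs, 290.1 to 357), a ratio of 0.487 (0.389 to 0.606). A Cxcr3 UMI was found in 40.8% of pIVCL members and 81.3% of Control members. After thinning to 1000 UMIs, with 8 pIVCL and 2 Control cells left out as shallower, the shares were 16.1% in pIVCL (26 of 161, 10.8% to 22.8%) and 27.2% in Control (49 of 180, 20.9% to 34.3%), whose intervals overlap. Among B cell barcodes thinned alike it was 0 of 950 in pIVCL and 0 of 147 in Control. In marker-free members the level was 245 CPM in pIVCL and 385 CPM in Control, a ratio of 0.636 (0.487 to 0.822). The Cxcr3 difference was therefore smaller, in the same direction, in marker-free members. With the rule applied after thinning, the ratio was 0.795 (0.407 to 1.49), an interval that includes 1. The listed chemokine and lipid receptors other than Cxcr6 divided evenly, 4 higher and 4 lower of 8 measured, where 58.9% of all genes were higher. Cxcr4, the receptor for CXCL12, was at 31.1 CPM in pIVCL (21 UMIs) and 9.63 CPM in Control (11 UMIs). Ccr9, a gut-homing receptor, was at 20.7 CPM in pIVCL (14 UMIs) and 44.6 CPM in Control (51 UMIs). Ccr2, a receptor for monocyte-attracting chemokines, was at 176 CPM in pIVCL and 235 CPM in Control.

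Most members held neither a CD8 nor a Cd4 UMI, 120 of 169 in pIVCL and 139 of 182 in Control, so subset calls cover a minority. A CD8 UMI (Cd8a or Cd8b1, the coreceptor of cytotoxic T cells) was found in 31 pIVCL members (18.3%, 12.8% to 25%) and 14 Control members (7.69%, 4.27% to 12.6%), although pIVCL was shallower. After thinning the shares were 11.8% in pIVCL (7.26% to 17.8%) and 4.44% in Control (1.94% to 8.57%). A Cd4 UMI was found in 11.2% of members in pIVCL and 15.9% in Control, and in 3.11% and 4.44% after thinning. Foxp3, the regulatory T cell factor, had 0 UMIs in the 169 pIVCL and 182 Control members, which, with 3 cells taken as the floor of a count of 0, allows shares of cells with a UMI of up to 1.78% and 1.65% and sets no limit on cells that express it below detection. Cxcr6-negative T cells held it in 14 of 212 cells in pIVCL and 1 of 41 in Control.

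Zbtb16 encodes PLZF, the transcription factor of NKT and other innate-like T cells. It was found in 18 of 169 pIVCL members (10.7%) and 53 of 182 Control members (29.1%), against 2 of 212 and 0 of 41 Cxcr6-negative T cells. After thinning only 2.48% of pIVCL and 3.89% of Control members held a Zbtb16 UMI, 4 and 7 cells, too few to show a difference. Its level was 34.1 CPM in pIVCL (21.6 to 51.1) and 66.5 CPM in Control (52.4 to 83.3), a ratio of 0.512 (0.306 to 0.825). The Zbtb16 ratio in marker-free members was 0.685 (0.340 to 1.28), an interval that includes 1. Klrb1c, the NK1.1 receptor of C57BL/6 NK and NKT cells, was found in 30.2% of pIVCL and 63.2% of Control members, and after thinning in 13% (8.26% to 19.2%) and 24.4% (18.4% to 31.4%). Thinned Klrb1c shares in marker-free members were 16.5% in pIVCL (10.1% to 24.8%) and 21.7% in Control (15.2% to 29.6%), at 160.2 and 226 CPM, a smaller difference. Trav11, the gene segment of the invariant NKT receptor, was found in 0 pIVCL and 7 Control members. After thinning Trav11 was found in 0 of 161 pIVCL and 2 of 180 Control members, too few to show a difference. Among members with a CD8 UMI and no Cd4 UMI, Klrb1c was found in 1 of 30 pIVCL and 5 of 14 Control cells. Among those with a Cd4 UMI and no CD8 UMI it was found in 3 of 18 pIVCL and 20 of 29 Control cells. These subset counts were not thinned to equal depth or limited to marker-free members. The Cd4 cells also differed in endothelial RNA, with Stab2, an endothelial marker, in 7 of 18 pIVCL and 1 of 29 Control cells. Whether their Cd4 UMIs came from T cells was not tested.

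Gamma-delta receptor RNA moved in 2 directions. Trdc, the delta constant gene, was found in 14 pIVCL and 3 Control members. Its level was 71.1 CPM (48 UMIs) in pIVCL and 16.6 CPM (19 UMIs) in Control. Whether the members with a Trdc UMI were gamma-delta T cells or innate lymphocytes was not tested. After thinning Trdc was found in 4.35% of pIVCL members (1.77% to 8.75%) and 1.67% of Control members (0.345% to 4.79%), whose intervals overlap. In Control 17 of the 19 UMIs stood in 1 cell. The gamma constant genes, which alpha-beta T cells can also transcribe, were lower in pIVCL. Tcrg-C2 was at 44.4 CPM in pIVCL and 123 CPM in Control, and Tcrg-C1 at 34.1 CPM in pIVCL and 82.3 CPM in Control. Any of the 4 constant genes was found in 32.0% of members in pIVCL and 60.4% in Control, and after thinning in 17.4% (11.9% to 24.1%) and 27.2% (20.9% to 34.3%), whose intervals overlap. In marker-free members the thinned shares were 22.9% in pIVCL (15.4% to 32.0%) and 28.3% in Control (20.9% to 36.5%), and Tcrg-C2 was at 81.7 and 131 CPM. The difference in share was smaller there, in the same direction, with intervals that overlap.

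Across all genes, Cxcr6-positive T cells of pIVCL and Control differed mostly on the higher side in pIVCL. Of 8460 genes with at least 20 summed UMIs, 427 were past 2-fold higher in pIVCL (5.05%) and 35 past 2-fold lower (0.414%), with a median log2 ratio of 0.09. In marker-free members 178 of 6059 genes were higher (2.94%) and 29 lower (0.479%), with a median of 0.01. Hepatocyte genes were prominent among those 178, with 13 of 18 hepatocyte markers past 2-fold higher and Mup20, one of them, ranked highest at 3.25. In all members the genes with the highest ratios were largely those of sinusoidal endothelium, most of which had too few UMIs in marker-free members for a ratio there.

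Among the 10 highest genes, 1 was on the list of cytokines and chemokines made by T cells, Ccl3, and its neighbour Ccl4 was the next of that list. Ccl3 and Ccl4 encode chemokines that activated cytotoxic lymphocytes release, and the genes lie close together on chromosome 11, at positions 83647844 to 83649355 and 83662584 to 83664683 of GRCm38. Ccl3 was at 271 CPM in pIVCL members (183 UMIs in 25 cells) and 20.1 CPM in Control members (23 UMIs in 10 cells), a ratio of 13.5 (8.70 to 21.8). Ccl4 was at 749 CPM in pIVCL (506 UMIs in 42 cells) and 147 CPM in Control (168 UMIs in 21 cells). A few cells held much of this RNA, with 3 cells carrying 52.5% of the Ccl3 UMIs in pIVCL and 65.2% in Control. For Ccl4 the 3 highest cells carried 35.8% in pIVCL and 40.5% in Control. In marker-free members the log2 ratios were 2.89 for Ccl3 and 2.22 for Ccl4, close to the 2.86 and 2.20 of all members. Members without a CD8 UMI gave 2.75 and 2.46, an alternative chosen after the values were seen. The same direction was seen in Cxcr6-negative T cells. In Cxcr6-negative T cells Ccl3 was at 219 CPM in pIVCL and 21.4 CPM in Control, where it had 4 UMIs. Ccl4 was at 646 CPM in pIVCL and 251 CPM in Control. In B cell barcodes Ccl3 was at 10.7 CPM in pIVCL and 41.0 CPM in Control, and Ccl4 at 32.4 and 130.3 CPM.

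The T cell cytokine list as a whole was divided. Of 22 listed genes 14 were measured, 8 higher, Ccl3 and Ccl4 among them, and 6 lower in pIVCL. The median log2 ratio was 0.23, and 58.9% of all genes were higher. In marker-free members 6 were higher and 6 lower, with a median of -0.02, where 51.5% of all genes were higher. Tnfsf14 encodes LIGHT, a ligand of the lymphotoxin beta receptor, and was at 10.4 CPM in pIVCL (7 UMIs) and 48.1 CPM in Control (55 UMIs). Cd40lg, the helper ligand that signals to B cells and macrophages, was at 44.4 CPM in pIVCL and 119.9 CPM in Control, a log2 ratio of -1.12. In marker-free members the log2 ratios of these genes were -0.83 for Tnfsf14 and -0.64 for Cd40lg. Ifng, the interferon that induces CXCR3 ligands, was at 117 CPM in pIVCL (92.6 to 146) and 180.3 CPM in Control (157 to 207). In marker-free members the Ifng ratio was 0.882 (0.632 to 1.21), an interval that includes 1. Ccl5, the most abundant transcript of the list by UMIs, was at 3583 CPM in pIVCL and 2895 CPM in Control, a ratio of 1.24 (1.17 to 1.30). In marker-free members Ccl5 was at 6252 CPM in pIVCL and 3254 CPM in Control, a ratio of 1.92 (1.81 to 2.04). The share of cells with a Ccl5 UMI went the other way. After thinning it was 55.9% in pIVCL and 68.9% in Control members, and 64.2% and 71.0% in marker-free members. In members without a CD8 UMI Ccl5 was at 2584 CPM in pIVCL and 2366 CPM in Control, and in those with one at 8375 and 7947 CPM.

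Cytotoxic genes had no common direction that held in both sets of members. Of 15 listed, 12 were measured, 4 higher and 8 lower, with a median log2 ratio of -0.16, where 58.9% of all genes were higher. None was past 2-fold. The tally turned in marker-free members, with 10 higher and 2 lower and a median of 0.27, where 51.5% of all genes were higher. Gzmb, a granule protease, was at 349 CPM in pIVCL and 467 CPM in Control, and at 516 and 514 CPM in marker-free members. After thinning Gzmb was found in 24.8% of pIVCL and 23.9% of Control members. Ctsw, a protease of cytotoxic lymphocytes, was at 221 CPM in pIVCL and 409 CPM in Control, a log2 ratio of -0.83, and Lamp1, a lysosomal membrane protein, at 264 CPM in pIVCL and 158 CPM in Control. Gzmk, a granzyme of memory CD8 T cells, fell below the 20 summed UMIs required. It had 14 UMIs in 9 pIVCL members and 0 UMIs in Control. With Control members set at a floor of 3 UMIs, Gzmk was 7.89-fold higher, a value that leaves out the counting error of the 14 UMIs. Gzmk was named after its values were seen. Eomes, a T-box factor of circulating cytotoxic cells, was likewise found in 6 pIVCL and 0 Control members.

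Tissue residency genes were mostly higher in pIVCL members, with 14 of 18 measured genes higher, 4 of them past 2-fold, and a median log2 ratio of 0.44. Of all genes, 58.9% were higher and 5.05% past 2-fold higher. In marker-free members 14 of 17 were higher, against 51.5% of all genes there, and the median was 0.43. Nr4a2, a nuclear receptor induced by T cell receptor signals, was at 87.4 CPM in pIVCL and 25.4 CPM in Control, with log2 ratios of 1.24 in all and 1.40 in marker-free members. Itga1, the CD49a chain that binds collagen IV, was at 435 CPM in pIVCL and 190.0 CPM in Control, with 1.12 in all and 0.43 in marker-free members. Litaf, a lysosomal regulator, had 1.11 in all and 0.59 in marker-free members, and Rgs2, a regulator of G protein signalling, 1.06 and 0.92. Rgs1, another such regulator and a known resident T cell gene, was past 2-fold in marker-free members, at 876 CPM in pIVCL and 406 CPM in Control, and had 576 and 353 CPM in all members. In Cxcr6-negative T cells the residency list was also higher in pIVCL, with 12 of 14 genes and a median of 0.57. Of all genes there, 56.6% were higher. Cells whose Cxcr6 RNA was not counted can fall in that class, so it is not a fully separate group.

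Recirculation genes had a median log2 ratio of 0.08, near the 0.09 of all genes, but with 3 of 15 past 2-fold higher, where 5.05% of all genes were. Klf2, the factor that drives S1pr1, was at 591 CPM in pIVCL and 160.2 CPM in Control, Igfbp4 at 635 and 216 CPM, and S1pr1 at 114 and 33.3 CPM. Endothelium also expresses all of these. In marker-free members their log2 ratios were 0.77 for Klf2, 0.70 for Igfbp4 and 0.78 for S1pr1, while Tcf7 was at 1.36, from 35 UMIs in pIVCL and 25 UMIs in Control.

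NKT and innate-like genes were mostly lower in pIVCL members, with 5 of 17 higher and 12 lower, where 58.9% of all genes were higher. Of the 12, 2 were past 2-fold lower, against 0.414% of all genes, and the list's median log2 ratio was -0.45. Klrc1, the inhibitory NKG2A receptor, was at 53.3 CPM in pIVCL and 153 CPM in Control, a ratio of 0.348 (0.236 to 0.500). Klrc2, its activating relative NKG2C, was at 87.4 CPM in pIVCL and 206 CPM in Control. Their sequences are similar, so reads could be shared between them. Klrb1b, an inhibitory relative of NK1.1, went the other way, at 47.4 CPM in pIVCL and 14.0 CPM in Control. Klra9, a Ly49 receptor of a closely related gene family, had log2 ratios of -0.89 in all and -0.45 in marker-free members. In marker-free members 7 of 17 were higher and 10 lower, near the 51.5% of all genes higher there, none past 2-fold lower, with a median of -0.16, and Klrc1 and Klrc2 both stood at -0.94. The list's difference was therefore smaller in marker-free members, while those receptors stayed close to 2-fold lower. In Cxcr6-negative T cells 10 of 14 measured genes of the list were higher in pIVCL, with a median of 0.20, where 56.6% of all genes were higher. The difference between the classes was not tested.

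Immediate-early genes, which cells switch on within minutes of stimulation and also during tissue dissociation, were higher in pIVCL members for 16 of 17 genes, 9 of them past 2-fold, with a median log2 ratio of 1.18. Of all genes, 58.9% were higher and 5.05% past 2-fold higher. Egr1 was at 324 CPM in pIVCL and 47.3 CPM in Control, Fosb at 324 and 52.5 CPM, Jun at 1118 and 299 CPM, and Fos at 731 and 193 CPM. In marker-free members 15 of 16 immediate-early genes were higher, 5 past 2-fold, with a median of 0.72 and with Fosb at 1.65, Egr1 at 1.06, Fos at 0.90 and Jun at 0.55. Of all genes there, 51.5% were higher and 2.94% past 2-fold higher. The immediate-early list was also higher in pIVCL among Cxcr6-negative T cells, with 16 of 17 genes and a median of 0.73 (where 56.6% of all genes were higher). Among B cell barcodes it had 13 of 17 higher and 0.35 (where 49.9% of all genes were higher). The part of cell isolation in this result was not tested. Feedback genes of NF-kB, a transcription factor of immune activation, were higher for 8 of 11 genes with a median of 0.58, where 58.9% of all genes were higher. Tnfaip3, the A20 inhibitor, was at 296 CPM in pIVCL and 98.0 CPM in Control, with log2 ratios of 1.42 in all and 1.63 in marker-free members. Nfkbiz, an NF-kB cofactor, had 2.07 in all and 0.95 in marker-free members. Heat shock genes were higher for 9 of 10, against the same 58.9%, with a median of 0.34, led by Hspa1b (30 UMIs in pIVCL, 1 UMI in Control) and Hspa1a (35 and 4 UMIs), near-identical copies whose reads cannot be split with certainty. In marker-free members 4 of 8 heat shock genes were higher, near the 51.5% of all genes, with a median of 0.09, and in B cell barcodes 10 of 10 with a median of 0.60.

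**Figure D3:**
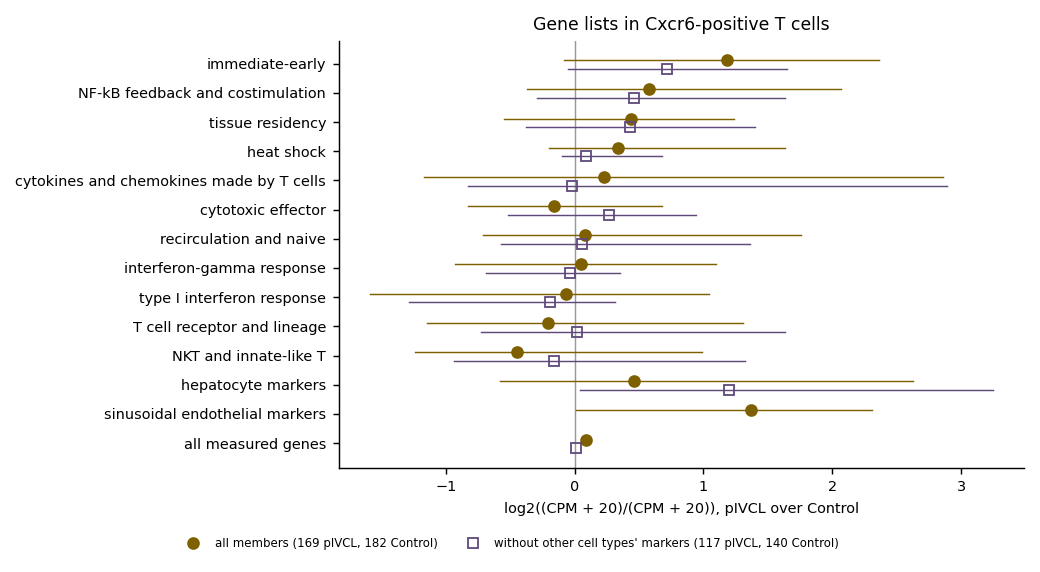
Log2 ratios, pIVCL over Control with 20 CPM added (x axis), of gene lists (rows) in all Cxcr6-positive T cells (filled circles) and in marker-free members (open squares); the marker is the list's median and the line its range. Immediate-early genes stand at 1.18 in all and 0.72 in marker-free members, and endothelial markers at 1.37 in all members, and have none in marker-free members, whose choice removes them.

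Genes lower in pIVCL members were few. Ifi27l2a, an interferon-induced gene, was lowest, at 235 CPM in pIVCL (159 UMIs in 72 cells) and 749 CPM in Control (855 UMIs in 138 cells), a ratio of 0.315 (0.264 to 0.373), and had a log2 ratio of -1.29 in marker-free members. It was lower in pIVCL elsewhere too, at 333 and 652 CPM in Cxcr6-negative T cells and at 422 and 909 CPM in B cell barcodes. The type I interferon list around it had a median of -0.07 in members, with 9 of 19 genes higher, where 58.9% of all genes were. In marker-free members its median was -0.19, with 4 of 13 higher, where 51.5% of all genes were. The list was lower in Cxcr6-negative T cells, with 3 of 13 higher and a median of -0.57, where 56.6% of all genes were higher. In B cell barcodes 0 of 19 were higher, with a median of -0.66, where 49.9% of all genes were higher. Of the interferon-gamma genes 11 of 21 were higher in members, where 58.9% of all genes were, and their median was 0.05. In marker-free members 8 of 19 were higher, with a median of -0.04, against 51.5% of all genes. The interferon-gamma list had 3 of 17 higher in Cxcr6-negative T cells (median -0.21, against 56.6%) and 1 of 19 in B cell barcodes (median -0.29, against 49.9%). Mmp9, a matrix-degrading protease, was at 40 CPM in pIVCL (17 cells) and 132 CPM in Control (80 cells), with log2 ratios of -1.34 in all and -1.16 in marker-free members. Ckb, a creatine kinase, had -1.37 and -0.88, Ly6a, the Sca-1 surface antigen, -1.14 and -0.73, Rbm3, a cold-induced RNA-binding protein, -1.11 and -0.99, and S100a4, a calcium-binding protein of migrating cells, -1.11 and -0.69. Serpina1e, a hepatocyte secretory gene, had -1.51 in all and 0.53 in marker-free members.

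The remaining 9 of the 10 highest genes depended on barcodes with other cells' RNA. Lyve1, a hyaluronan receptor of sinusoidal endothelium, was at 837 CPM in pIVCL members (565 UMIs in 37 cells) and 34.1 CPM in Control members (39 UMIs in 5 cells). Marker-free members held 4 UMIs in pIVCL and 0 UMIs in Control. Cxcl9, the CXCR3 ligand of the study's title, was at 314 CPM in pIVCL (212 UMIs in 28 cells) and 12.3 CPM in Control (14 UMIs in 6 cells), and marker-free members held 2 UMIs in each library. Cxcl10 was at 367 CPM in pIVCL and 25.4 CPM in Control, with 12 UMIs in pIVCL and 9 UMIs in Control left in marker-free members. Most of the pIVCL UMIs of both chemokine genes thus stood in members with markers of other cell types. Ctgf, Cd36, Marcks, Col4a1 and Sparc had log2 ratios of 2.69 to 2.88 in all members, and 0 to 3 UMIs each per library in marker-free members. Esm1, an endothelial secreted protein, had 81 UMIs in pIVCL and 0 UMIs in Control, and 1 UMI in marker-free pIVCL members. With Control members set at a floor of 3 UMIs, Esm1 was 45.7-fold higher in all pIVCL members. The exact lower bound of its ratio was 36.3.

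The 12 endothelial markers were all detected in members of both libraries and summed to 4341 CPM in pIVCL and 1671 CPM in Control, ranging over cells up to 1.91% of UMIs in pIVCL and 2.47% in Control, with a median cell at 0 in both. At least 2 of their UMIs stood in 40 of 169 members in pIVCL (23.7%) and 27 of 182 in Control (14.8%). Every one of the 13 pIVCL members over 10000 UMIs, and 9 of the 13 such Control members, held other cells' markers. Of 12 macrophage markers 9 were detected in pIVCL and 10 in Control members, at 130.3 and 77.0 CPM, and Marco and Timd4 were at 0 in both. Hepatocyte RNA was in all cells, with a median of 1.80% of UMIs per member in pIVCL and 0.972% in Control, and all 18 hepatocyte markers were higher in pIVCL among marker-free members (median log2 ratio 1.20). Whether a barcode with endothelial UMIs held 2 cells, a cell pair or free RNA was not tested, and no doublet caller was run.

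**Figure D4:**
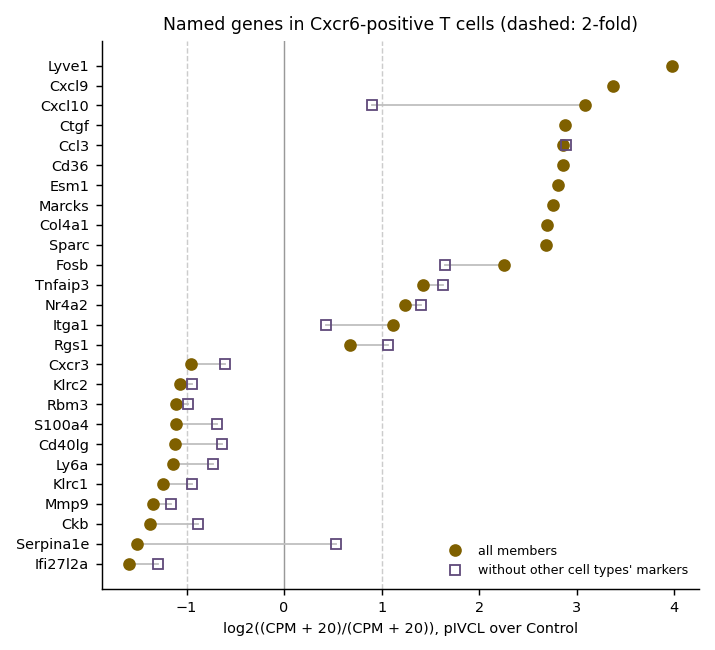
Log2 ratios, pIVCL over Control with 20 CPM added (x axis), of the 10 highest and 10 lowest genes and of 6 others described (rows) in all Cxcr6-positive T cells (filled circles) and marker-free members (open squares, only where at least 20 UMIs were summed); dashed lines mark 2-fold. Ccl3 lies at 2.86 in all and 2.89 in marker-free members, while Lyve1, at 3.98, and Cxcl9, at 3.37, have no open square.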

How the data were processed

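The authors deposited UMI counts per gene and barcode for each library, as whole numbers with no normalization. The submitters' processing notes name Cell Ranger 3.0.2 and mm10. No source used here gives the annotation release. Of 31053 gene identifiers, 30934 (99.6%) matched GENCODE M21, which gave gene positions. The files held barcodes from 500 UMIs, and the mitochondrial limit removed 1590 pIVCL and 848 Control barcodes.

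UMIs were summed per class and library and scaled to CPM. Levels carry Poisson, shares Clopper-Pearson and ratios conditional binomial intervals at 95%. Thinning drew 1000 UMIs per cell. A list's result is its median log2 ratio over genes with at least 20 summed UMIs. Of 382 symbols in 27 lists, 380 were found. B cell barcodes held at least 2 UMIs of Cd79a, Cd79b and Ms4a1, and NK barcodes at least 2 of Ncr1, Klrb1c and Klre1, both with no UMI of the 5 T cell genes.

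Named genes were the receptors, the 2 to 4 list members with the largest ratios, and the extremes with at least 30 UMIs and 100 CPM, leaving out mitochondrial, ribosomal, unnamed and receptor segment genes and those at least 5 times higher in non-T barcodes. Any others were chosen after their values were seen. Members and lists were chosen with earlier results of these data known. The calculation was tested on simulated data. Python 3.11.15, numpy 2.4.6, scipy 1.17.1 and matplotlib 3.10.9 were used. Some results are not reported here.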

Additional observations from a re-analysis of the deposited data

Results flagged for a closer look

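Esm1, Col4a1 and Sparc, genes of endothelium and matrix, had log2 ratios of Cxcr6-positive over Cxcr6-negative T cells that pointed opposite ways in the libraries. In pIVCL they were 1.97 for Esm1, 1.42 for Col4a1 and 1.97 for Sparc, and in Control -1.65 for Esm1, -1.87 for Col4a1 and -2.25 for Sparc. The difference was not tested, and marker-free members held at most 2 UMIs of each gene in either library. Control Cxcr6-negative T cells held 8 UMIs of Esm1 and 32 of Col4a1, and those chosen as marker-free in the same way held 0 of both.

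Barcodes outside the T cell rule also held Cxcr6. In pIVCL 7 of 36 NK barcodes (19.4%, 8.19% to 36%) had a Cxcr6 UMI, against 0 of 3 in Control and 0 of 1035 B cell barcodes in pIVCL, at medians of 2252, 4167 and 1871 UMIs.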

How the results depend on the processing

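No paired analysis was possible because each group had 1 library, so leaving out a library was not possible either. The lower Cxcr6-positive share of T cells in pIVCL and the lower Cxcr3 ratio kept their direction under every alternative run. The members without a CD8 UMI and the 2000 to 6000 UMI window were added after seeing the data. The causes of the changes below were not tested, beyond fewer cells, UMIs or genes where the alternative itself removes them.

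With a mitochondrial limit of 10%, members were 3.77% of filtered barcodes in pIVCL and 7.98% in Control, and the log2 ratio of Serpina1e was 0.14. Without barcodes holding other cells' markers, members were 38.2% of T cells in pIVCL, and 2.15% of filtered barcodes in pIVCL and 5.14% in Control. There 178 genes were past 2-fold higher in pIVCL, the T cell receptor list had a median of 0.02, and the Cxcr3 ratio was 0.636. Marcks was then at -0.04 and Col4a1 and Sparc at -0.18, from 0 to 3 UMIs per library, with Serpina1e at 0.53, and Maf over Cxcr6-negative cells in pIVCL at -0.03.

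With every barcode thinned to 1000 UMIs before the rule, members were 21.6% of T cells in pIVCL and 50.3% in Control, and 1.44% and 4.19% of filtered barcodes. Members with a Cd4 UMI were 4.92% in pIVCL and 5.15% in Control, with a gamma-delta constant UMI 21.3% and 27.8%, and with a CD8 UMI 3.09% in Control. Genes past 2-fold were 85 higher and 57 lower in pIVCL, and in both libraries 4 higher and 4 lower over Cxcr6-negative T cells. Medians were 0.59 for immediate-early, -0.61 for type I interferon and 0.03 for T cell receptor genes, and the Cxcr3 ratio was 0.795. Col4a1 was at -0.48. Over Cxcr6-negative T cells Ptprb was at -2.39, Maf at -0.30 and Cd38 at -0.80 in pIVCL, and Cd38 and Rora at -0.01 in Control.

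Genes past 2-fold in pIVCL members were 61 lower with at least 2 Cxcr6 UMIs, 841 higher and 151 lower with 5 CPM added, and 167 higher and 8 lower with 50 CPM added. They were 80 lower when mitochondrial, ribosomal and hepatocyte genes were left out of the total, 22 lower with every cell counted equally, and 260 higher in the 2000 to 6000 UMI window, where Serpina1e was at 0.36. Past 2-fold over Cxcr6-negative T cells in both libraries stood 106 genes higher with 5 CPM added, 9 higher and 7 lower with 50 CPM added, 23 higher and 13 lower with at least 50 summed UMIs, and 14 lower with every cell counted equally.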
